A study of Mus musculus with 12 samples.

Results

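The genes of glucose handling in the liver, from sugar uptake through glycolysis and pyruvate entry to gluconeogenesis and glycogen, were followed in severe acute pancreatitis (SAP). They comprised 37 genes, chosen by symbol from a table of 55487 rows: 5 of uptake and phosphorylation, 13 of glycolysis, 5 of pyruvate entry, 5 of gluconeogenesis, 6 of glycogen and 3 regulators. The samples were livers of Balb/c wild type mice, 6 weeks old: 6 from controls (control 3 to control 8) and 6 from mice given caerulein (SAP 10 to SAP 15). Caerulein is a cholecystokinin analogue that overstimulates the pancreas. All 12 samples shared strain, age, genotype and tissue. The sources used here do not give the dose, the feeding state or the hour of collection. Nor do they say whether each library is its own animal, and the p-values cover the spread among libraries, which may be technical. The design text speaks of more than 1 mouse model, while the labels name caerulein alone.

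The liver takes up glucose through a transporter that works in both directions, traps it as glucose 6-phosphate, and stores it as glycogen or breaks it down to pyruvate. In fasting it runs the path in reverse, releasing glucose from glycogen and from lactate and amino acids. Hepatocytes use their own forms of several proteins of the path, among them liver pyruvate kinase and the transporter Slc2a2, while most other cells use muscle-type pyruvate kinase and Slc2a1.

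Levels are in TPM, a unit scaled by gene length and to a common total per library, so the depth is unknown. Differences are SAP minus control of log2(TPM + 1), from a limma fit over 11344 genes with Benjamini-Hochberg adjustment; a gene is said to have risen or fallen where its adjusted p was under 0.05. The hepatocyte markers Alb, Ttr and Hnf4a were abundant in every library. Of 9 hepatocyte markers tested, however, 6 fell and 1 rose, where 25.0% and 19.5% of all genes did. Acute phase transcripts took 2.65 to 3.06% of all TPM in controls and 20.2 to 34.4% in SAP, most in SAP 14. Xist was at 4.59 to 17.1 TPM in control 5, SAP 11, SAP 13, SAP 14 and SAP 15 and at 49.1 to 60.7 TPM in the other 7 libraries, and Malat1 followed the same split.

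In SAP livers 26 of the 36 genes tested fell, and the 5 that rose were Slc2a1, Hk1, Aldoa, Pkm and Ldha. Liver pyruvate kinase Pklr was 3.39-fold lower, glycogen phosphorylase Pygl 3.58-fold lower and the gluconeogenic enzyme Pck1 3.03-fold lower by the means of 6 and 6 samples. Lactate dehydrogenase A (Ldha) was 2.14-fold and muscle-type pyruvate kinase (Pkm) 2.06-fold higher. Of the 37 genes Hk2 was too low to test, and 5 of the 36 did not pass the threshold. Over all genes tested 25.0% fell and 19.5% rose. The median difference of the 36 was -0.76, against -0.03 over all genes. The 6 SAP values lay wholly outside the 6 control values for 25 of the 36, against 25.6% of all genes. A fall of 1 or more on the log2 scale was found for 12 of them, against 5.43% of all genes, and a rise of that size for 1, against 2.55%.

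**Figure D1:**
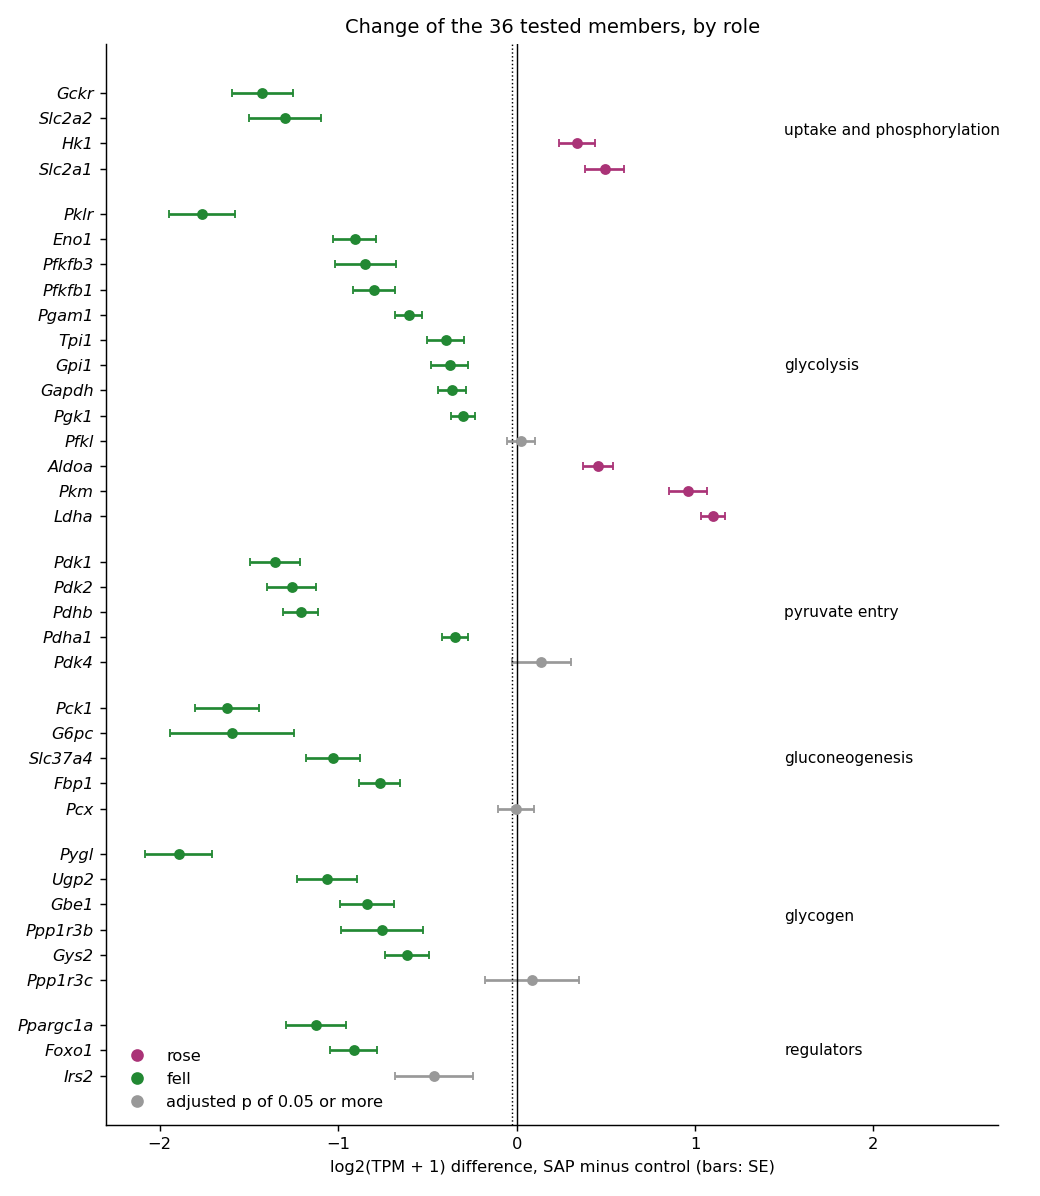
Log2(TPM + 1) difference, SAP minus control, for each of the 36 tested genes, grouped by role, with bars of 1 SE; the dotted line is the median of all 11344 genes at -0.03. Genes of pyruvate entry, gluconeogenesis and glycogen lie left of 0 or beside it, from Pygl at -1.89, and the 5 that rose, up to Ldha at 1.10, belong to uptake and glycolysis.

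The DNA before the transcription start of 4 genes is shown because they stand for both directions: Pck1 and Pklr among the genes that fell, Ldha and Slc2a1 among those that rose. Each is the 250 bases before a RefSeq start on GRCm38.p6, on the plus strand: Pck1 at chr2:173152823-173153072, Pklr at chr3:89136373-89136622 (the downstream of its RefSeq starts, used in liver), Ldha at chr7:46845554-46845803 (the upstream of its starts) and Slc2a1 at chr4:119108495-119108744. The first bases after the shown Pklr and Ldha starts were not found in the reference transcripts searched, unlike those of their other starts. The build behind the deposited values is not stated. Capitals mark matches to the motifs named after the sequences.
Pck1: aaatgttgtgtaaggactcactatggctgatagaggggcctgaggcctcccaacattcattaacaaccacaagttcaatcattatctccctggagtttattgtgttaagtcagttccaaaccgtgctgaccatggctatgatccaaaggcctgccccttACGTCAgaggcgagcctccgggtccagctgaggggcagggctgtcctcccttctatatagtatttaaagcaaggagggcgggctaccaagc
Pklr: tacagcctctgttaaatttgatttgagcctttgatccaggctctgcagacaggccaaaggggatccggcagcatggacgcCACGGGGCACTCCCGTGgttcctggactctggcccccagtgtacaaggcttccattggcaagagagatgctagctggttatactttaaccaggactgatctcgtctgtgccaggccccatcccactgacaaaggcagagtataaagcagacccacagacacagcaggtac
Ldha: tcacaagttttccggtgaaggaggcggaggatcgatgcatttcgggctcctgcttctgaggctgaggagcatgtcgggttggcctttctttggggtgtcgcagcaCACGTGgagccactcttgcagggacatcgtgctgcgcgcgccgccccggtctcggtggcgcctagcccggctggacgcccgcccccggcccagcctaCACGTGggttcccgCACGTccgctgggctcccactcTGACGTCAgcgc
Slc2a1: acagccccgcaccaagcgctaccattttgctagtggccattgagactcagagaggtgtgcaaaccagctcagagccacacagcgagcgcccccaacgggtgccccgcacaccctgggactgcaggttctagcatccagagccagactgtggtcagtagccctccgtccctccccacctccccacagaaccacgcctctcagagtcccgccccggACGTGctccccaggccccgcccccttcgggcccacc

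In Pck1 the capitals are the core TGACGT of the cAMP response element, on the other strand, beginning 91 bases before the start. In Pklr they are the carbohydrate response element, a pair of E-box-like stretches, beginning 170 bases before the start. Ldha held the E-box CACGTG 145 and 48 bases before the start, and the hypoxia response core ACGTG, which every E-box contains, also 34 bases before it. Its capitals nearest the start are TGACGT on both strands, overlapping. Slc2a1 held ACGTG 36 bases before the start. The windows before the other starts of Ldha and Pklr held 0 matches to these motifs.

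Promoters were on hand for 35 of the 37 genes, and both strands were searched. ACGTG was found in 4 of the 5 genes that rose (Slc2a1, Aldoa, Pkm and Ldha) and in 8 of 24 that fell. It was also found in 3 of 5 that did not pass the threshold (Pcx, Ppp1r3c and Irs2) and in Hk2. Over all 27025 genes of the table the share was 18.5%. The windows with ACGTG in the 4 genes that rose were 61.6 to 67.6% G and C, against a median of 52.4% over all promoters. The part of base content in these shares was not tested. In Ldha, Ugp2, Pdk2, Pgam1 and Irs2 the match lay only before starts whose first bases were not found in the reference transcripts searched. TGACGT was found in 1 of the 5 that rose, in 5 of 24 that fell (Pck1, Slc37a4, Ppargc1a, Pdhb and Pfkfb3) and in 7.29% of all genes. For CACGTG these were 1 of 5, 2 of 24 and 6.86%. Among the 5 that did not pass the threshold, TGACGT was in 0 and CACGTG in 3. Hk2 held TGACGT but not CACGTG. The carbohydrate response element, a motif added after the sequences had been read, was found in Pklr and in 0.0444% of all genes. A forkhead motif (GTAAACA), an HNF4 motif (CAAAGTCCA) and an HNF1 motif were found for 0 of the 35 genes and in 3.54%, 0.451% and 0.0111% of all genes. With strings this rare over all genes, 0 matches cannot show that sites for these factors are absent. The 35 genes had 53 windows between them, against 32851 for the 27025 genes, so a match had more room in them. A match is a stretch of letters and not a measured binding site.

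At the entry step Slc2a2 and Gckr fell, and Slc2a1 and Hk1 rose. Slc2a2, the two-way glucose transporter of hepatocytes, ranged from 109.7 to 158 TPM in controls (median 124) and from 29.6 to 85.3 TPM in SAP (median 50.1). The groups did not overlap, and SAP 14 was lowest (difference -1.30 ± 0.20 SE, adjusted p = 1.77e-04). Gckr, a regulatory protein of glucose phosphorylation in hepatocytes, ranged from 90.6 to 121 TPM in controls (median 111) and from 23.9 to 61.3 TPM in SAP (median 40.7), also without overlap (-1.43 ± 0.17 SE, adjusted p = 1.92e-05).

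Slc2a1, the transporter of most cells other than hepatocytes, rose from 3.09 ± 0.462 to 4.78 ± 0.823 TPM (SD, n = 6 each; 0.49 ± 0.11 SE, limma adjusted p = 0.00253). Hexokinase Hk1 rose from 1.05 ± 0.0601 to 1.61 ± 0.375 TPM (SD, n = 6 each; 0.34 ± 0.10 SE, limma adjusted p = 0.0164), with SAP 14 at 1.03 TPM inside the control range. Hk2, an insulin-regulated hexokinase of muscle and fat, was below the filter on low values, at 0.09 to 0.42 TPM in controls and 0.22 to 0.49 TPM in SAP, and was not tested.

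Along glycolysis 9 of 13 genes fell, Aldoa, Pkm and Ldha rose, and Pfkl did not pass the threshold. Over all genes 25.0% fell and 19.5% rose. Pklr, which makes pyruvate in hepatocytes and red cells, ranged from 185 to 314 TPM in controls (median 199) and from 48.8 to 92.2 TPM in SAP (median 58.9). No SAP library reached the lowest control (-1.76 ± 0.19 SE, adjusted p = 6.55e-06). Red cell transcripts (4 globin genes and Alas2 of haem synthesis) also fell, 5 of 5 tested, where 25.0% of all genes did. Their sums were 607 to 5292 TPM in controls and 341 to 716 TPM in SAP. The groups overlapped in sum and for each of the 5 genes. Control 5, with the lowest red cell sum among controls, had the highest Pklr, at 314 TPM. Control 4, with the next lowest sum (1007 TPM), had Pklr at 194 TPM. The part of red cells in the fall of Pklr was not tested.

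Pkm, the pyruvate kinase gene of muscle and of most other tissues, ranged from 9.08 to 10.5 TPM in controls (median 10.3) and from 15.7 to 25.5 TPM in SAP (median 21.6). All 6 SAP libraries were above all controls (0.96 ± 0.11 SE, adjusted p = 1.01e-05). Its alternative exons cannot be told apart in a table of genes. Ldha, which interconverts pyruvate and lactate, ranged from 488 to 603 TPM in controls (median 546) and from 1109 to 1262 TPM in SAP (median 1161). The groups did not overlap (1.10 ± 0.07 SE, adjusted p = 8.19e-08). Aldoa, the aldolase of muscle and most other tissues, rose from 78.3 ± 7.18 to 107.9 ± 12.3 TPM (SD, n = 6 each; 0.46).

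The bifunctional enzymes that set fructose 2,6-bisphosphate, the activator of phosphofructokinase, were lower. Pfkfb1, the liver form, fell from 41.7 ± 3.41 to 23.9 ± 4.76 TPM (SD, n = 6 each; -0.80) without overlap. Pfkfb3, an inducible form, fell from 5.05 ± 1.23 to 2.35 ± 0.678 TPM (SD, n = 6 each; -0.85), with control 7 at 2.76 TPM inside the SAP range. The phosphofructokinase gene Pfkl itself was at 19.3 ± 1.97 and 19.7 ± 1.64 TPM (SD, n = 6 each; 0.03 ± 0.08 SE, limma adjusted p = 0.818). It was past the threshold on the higher side when scaled outside the acute phase list (0.40, limma adjusted p = 6.54e-04). Under that scaling the median of all genes moved to 0.30, and 53.2% of them were called higher.

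The other enzymes of the path carry reversible steps. Eno1 (enolase) fell by 0.91 and Pgam1 (phosphoglycerate mutase) by 0.60 on the log2 scale, both without overlap, and both fell under all 4 scalings. Tpi1 (triosephosphate isomerase, -0.40), Gpi1 (glucose phosphate isomerase, -0.38), Gapdh (glyceraldehyde phosphate dehydrogenase, -0.36) and Pgk1 (phosphoglycerate kinase, -0.30) fell on deposited TPM, but their call depended on the scaling. Tpi1 (-0.14, adjusted p = 0.194) and Gpi1 (-0.10, adjusted p = 0.29) missed the threshold with quantile normalization. With each library rescaled outside the acute phase list these 4 stood between -0.008 and 0.087, where the median of all genes moved to 0.30, and Pgk1 was at 0.085 with quantile normalization. All 4 were below the median of all genes under that rescaling, while Pgk1 was above the median of 0.02 with quantile normalization. Several of these genes have processed pseudogenes, and the sources used here do not say how shared reads were assigned. The 13 glycolysis genes together took 3254 to 3667 TPM in controls and 3084 to 3828 TPM in SAP, ranges that overlap.

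**Figure D2:**
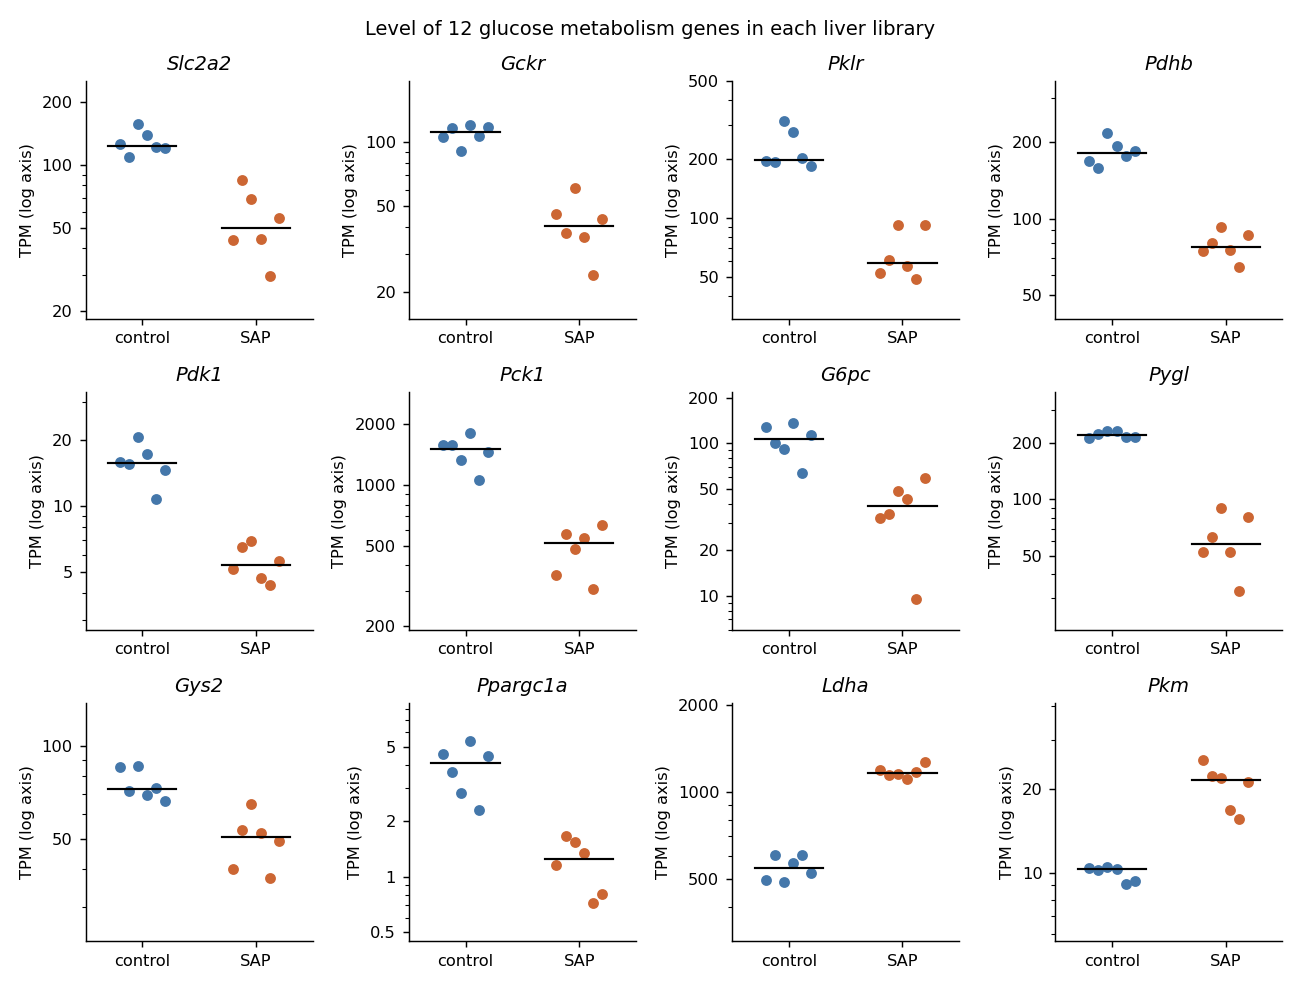
TPM on a log axis in each of the 6 control and 6 SAP libraries for 12 of the genes; points are libraries and lines are group medians. The groups do not overlap in any panel; G6pc has its lowest point, 9.58 TPM, in SAP 14, and Ldha and Pkm are the panels in which SAP lies above.

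Of the 5 genes of pyruvate entry into mitochondria, the dehydrogenase subunits Pdha1 and Pdhb and the kinases Pdk1 and Pdk2 fell. The kinase Pdk4 did not pass the threshold, and 0 rose. Over all genes 25.0% fell and 19.5% rose. Pdhb, the beta subunit of pyruvate dehydrogenase, ranged from 158 to 219 TPM in controls (median 181) and from 64.3 to 93.0 TPM in SAP (median 77.5), without overlap (-1.21 ± 0.10 SE, adjusted p = 6.48e-07). Pdha1, the X-linked alpha subunit, went from 44.8 ± 4.36 to 34.9 ± 1.91 TPM (SD, n = 6 each; -0.35). It stood at 0.035 when scaled outside the acute phase list, where the median of all genes was 0.30. Among the high Xist libraries its difference was -0.30 (limma adjusted p = 0.0629).

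Pdk1 and Pdk2 phosphorylate and inhibit the dehydrogenase. Pdk1 ranged from 10.8 to 20.8 TPM in controls (median 15.7) and from 4.35 to 6.90 TPM in SAP (median 5.40; difference -1.35 ± 0.14 SE, adjusted p = 5.53e-06). Pdk2 ranged from 68.3 to 83.1 TPM in controls (median 77.6) and from 24.9 to 48.0 TPM in SAP (median 29.9; difference -1.26 ± 0.14 SE, adjusted p = 8.55e-06). Neither kinase overlapped between groups. Pdk4, the kinase induced by fasting, was low in both, at 1.36 to 3.69 TPM in controls and 2.04 to 4.12 TPM in SAP (0.14 ± 0.16 SE, limma adjusted p = 0.522). Scaled outside the acute phase list Pdk4 was at 0.43 (limma adjusted p = 0.045), where the median of all genes was 0.30. Pdk3, another such kinase, named after its values were seen, was below the filter and not tested, at 0.26 to 0.91 TPM in controls and 0.94 to 1.38 TPM in SAP, ranges that do not overlap.

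Of the 5 genes of gluconeogenesis and glucose release 4 fell, 0 rose and pyruvate carboxylase did not pass the threshold. Over all genes 25.0% fell and 19.5% rose. Pck1, the cytosolic phosphoenolpyruvate carboxykinase whose promoter is shown earlier, ranged from 1055 to 1802 TPM in controls (median 1515) and from 307 to 632 TPM in SAP (median 515). The groups did not overlap (-1.62 ± 0.18 SE, adjusted p = 9.27e-06). G6pc, the catalytic subunit of glucose 6-phosphatase, ranged from 63.6 to 136 TPM in controls (median 107.1) and from 9.58 to 59.3 TPM in SAP (median 38.7; -1.59 ± 0.35 SE, adjusted p = 0.00214). SAP 14 held the lowest value, and without it the difference was -1.25.

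Slc37a4, the transporter that brings glucose 6-phosphate to that enzyme in the endoplasmic reticulum, ranged from 127 to 162 TPM in controls (median 139) and from 47.1 to 97.2 TPM in SAP (median 68.5; -1.03 ± 0.15 SE, adjusted p = 1.02e-04). Fbp1, fructose 1,6-bisphosphatase, fell from 1369 ± 93.3 to 815 ± 156 TPM (SD, n = 6 each; -0.77) without overlap. Pcx, the pyruvate carboxylase gene, was at 216 ± 27.5 TPM in controls and 215 ± 25.1 TPM in SAP (SD, n = 6 each; -0.00 ± 0.10 SE, limma adjusted p = 0.995). It was past the threshold on the higher side with quantile normalization (0.38, limma adjusted p = 0.00367) and when scaled outside the acute phase list (0.39, limma adjusted p = 0.00155). The medians of all genes under these scalings were 0.02 and 0.30. The 5 genes together took 2798 to 3859 TPM in controls and 1184 to 1872 TPM in SAP.

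In the glycogen group 5 of 6 genes fell and 0 rose, where 25.0% of all genes fell and 19.5% rose. Ppp1r3c did not pass the threshold. Enzymes of both breakdown and synthesis were among the 5 that fell. Whether their changes differ in size was not tested. Pygl, liver glycogen phosphorylase, had nearly equal values in controls, 212 to 232 TPM (median 219), and ranged from 32.5 to 90.3 TPM in SAP (median 57.8; -1.89 ± 0.19 SE, adjusted p = 4.20e-06). Gys2, liver glycogen synthase, ranged from 66.1 to 85.9 TPM in controls (median 72.5) and from 37.4 to 64.7 TPM in SAP (median 50.7; -0.61 ± 0.12 SE, adjusted p = 0.00117). Neither gene overlapped between groups. Gys2 missed the threshold among the high Xist libraries (-0.51, limma adjusted p = 0.0546) and when scaled outside the acute phase list (-0.23, limma adjusted p = 0.0594).

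Ugp2, which makes the UDP-glucose that glycogen synthase uses, ranged from 123 to 180 TPM in controls (median 151) and from 47.6 to 100.4 TPM in SAP (median 75.7; -1.06 ± 0.17 SE, adjusted p = 1.85e-04). Gbe1, the branching enzyme, fell from 60.7 ± 9.14 to 34.1 ± 9.04 TPM (SD, n = 6 each; -0.84) without overlap. Ppp1r3b and Ppp1r3c direct protein phosphatase to glycogen. Ppp1r3b fell from 68.9 ± 13.1 to 42.3 ± 14.4 TPM (SD, n = 6 each; -0.76), with overlap, and missed the threshold when scaled outside the acute phase list (-0.38, adjusted p = 0.124). Ppp1r3c was spread widely in SAP, from 12.5 to 41.0 TPM, against 19.5 to 34.6 TPM in controls (0.09 ± 0.26 SE, limma adjusted p = 0.815).

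Among the regulators, Ppargc1a and Foxo1, which activate gluconeogenic genes in fasting, both fell. Ppargc1a ranged from 2.29 to 5.37 TPM in controls (median 4.09) and from 0.72 to 1.65 TPM in SAP (median 1.25; -1.13 ± 0.17 SE, adjusted p = 1.27e-04). Foxo1 fell from 7.81 ± 1.17 to 3.70 ± 0.779 TPM (SD, n = 6 each; -0.91), and neither gene overlapped between groups. Irs2, an insulin receptor substrate, ranged from 3.29 to 4.41 TPM in controls (median 3.63) and from 1.0 to 3.91 TPM in SAP (median 3.12; -0.46 ± 0.22 SE, limma adjusted p = 0.101). SAP 14 and SAP 15 were at 1.0 and 1.13 TPM and the other SAP libraries between 2.87 and 3.91 TPM. Within the high Xist libraries, which hold neither, the difference was -0.009. With quantile normalization Irs2 was past the threshold (-0.48, adjusted p = 0.0479).

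Ratios of gene levels within a library are not changed by scaling each library with 1 factor, though quantile normalization can change them. The pairs were chosen after the values were seen, and the ratios are a description with no test. Pkm over Pklr was 0.0334 to 0.053 in controls and 0.23 to 0.486 in SAP, so Pklr was the more abundant gene in every library. Slc2a1 over Slc2a2 was 0.0147 to 0.032 in controls and 0.0618 to 0.132 in SAP. Pck2 over Pck1, the mitochondrial against the cytosolic carboxykinase, was 0.000438 to 0.00102 in controls and 0.00225 to 0.00652 in SAP. Ldha over Pdhb was 2.23 to 3.81 in controls and 12.4 to 18.2 in SAP. Gys2 over Pygl was 0.301 to 0.402 in controls and 0.609 to 1.15 in SAP. None of these 5 ratios overlapped between groups. Pck1 over Pklr, an enzyme of gluconeogenesis against one of glycolysis, overlapped (4.22 to 8.11 in controls and 5.25 to 9.63 in SAP), as did Gys1 over Gys2, the muscle against the liver synthase (0.013 to 0.0177 in controls and 0.0166 to 0.0289 in SAP).

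**Figure D3:**
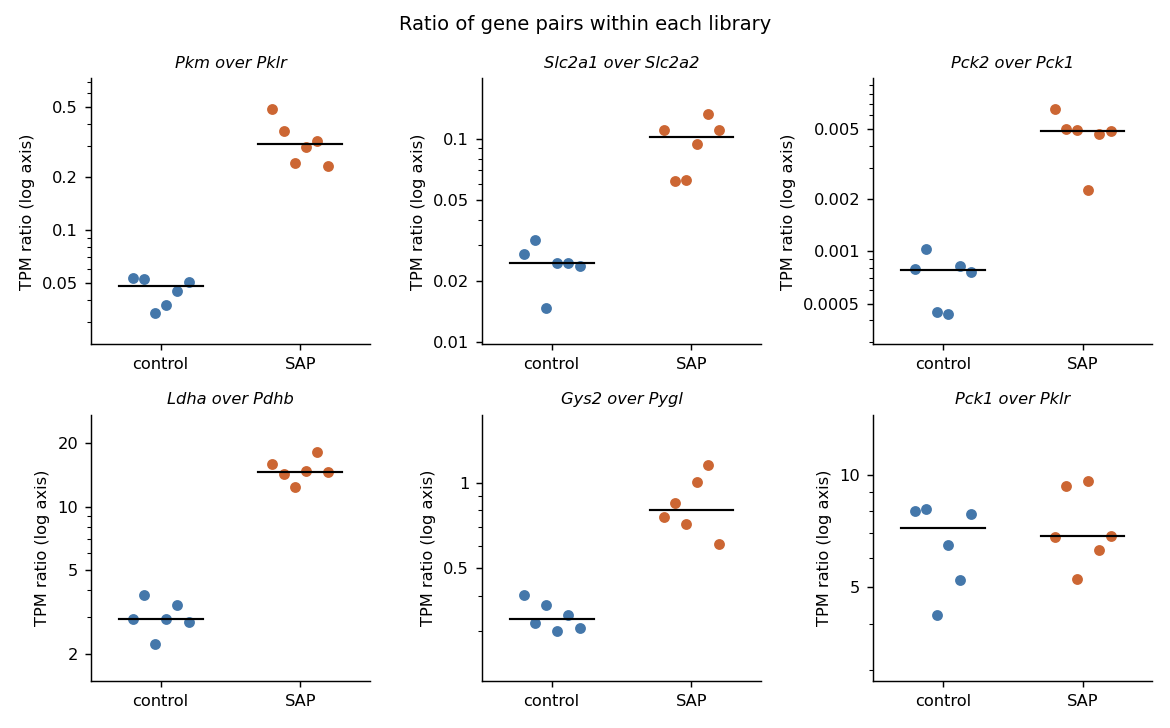
Ratio of the TPM of 2 genes within each library, on a log axis, for 6 controls and 6 SAP; points are libraries and lines are medians. SAP lies above the controls in the upper panels, with Pkm over Pklr at a median of 0.0477 in controls and 0.309 in SAP, while the groups overlap in the panel of Pck1 over Pklr.

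Some markers of other cell types also changed, where 25.0% of all genes fell and 19.5% rose. Neutrophil markers (12 genes, of which 6 never reached 1 TPM, Ly6g and Mpo among them) summed to 5.43 to 20.3 TPM in controls and 37.6 to 113 TPM in SAP, and 3 of the 4 tested rose. Monocyte markers (9 genes) summed to 44.5 to 65.5 and 69.8 to 153 TPM, with 4 of 5 tested higher and 1 lower. Most of that sum came from Plac8, Cd14 and Lyz2, and without them it was 1.32 to 3.16 and 6.2 to 22.5 TPM. Kupffer cell markers (10 genes; 211 to 323 and 189 to 429 TPM; 1 rose, 3 fell), sinusoidal endothelial markers (9 genes; 120.1 to 166 and 128 to 188 TPM; 3 rose, 1 fell) and stellate markers (10 genes; 112 to 139 and 126 to 168 TPM; 6 rose, 1 fell) overlapped in sum. So did cholangiocyte markers (6 genes; 14.5 to 29.7 and 15.9 to 41.1 TPM; 0 of 2 tested passed) and lymphocyte markers (8 genes; 2.25 to 4.12 and 2.28 to 6.79 TPM; 1 tested, and it rose). The part of these cells in the rise of Pkm, Aldoa, Hk1, Slc2a1 and Ldha was not tested. In bulk liver, fewer cells of a type and less RNA per cell cannot be told apart. The hepatocyte markers also fell (6 of 9 tested, 1 rose), from sums of 84261 to 98111 TPM to 37976 to 52674 TPM.

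SAP libraries did not contribute evenly. SAP 14 was the lowest of the 6 SAP libraries for 21 of the 26 genes that fell and for 3 of the 5 that rose, and SAP 15 was the highest for 13 and 3. How often these libraries were lowest or highest over all genes was not counted, so this cannot be called particular to the glucose genes. SAP 14 also had the fewest genes at 1 TPM of all 12 libraries (10810) and the largest acute phase share (34.4%). Without SAP 14 and control 5, 26 genes fell and 5 rose, where 22.8% and 20.2% of all genes did. With the Xist split in the model the counts were also 26 and 5, against 19.4% and 20.5%, and within the high Xist libraries alone (5 controls, SAP 10 and SAP 12) 24 fell and 5 rose, where 16.1% and 18.0% of all genes did.

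The number of smaller falls past the threshold depended on the scaling. TMM-like scaling gave 26 lower and 5 higher of the 36, where 24.5% and 24.0% of all genes were called. Quantile normalization gave 24 and 6, against 22.8% and 26.0%. Scaling outside the acute phase list gave 19 and 8, against 11.2% and 53.2%; the added higher calls were Pfkl, Pdk4 and Pcx. Slc2a1, Hk1, Aldoa, Pkm and Ldha were past the threshold on the higher side under all 4 scalings.

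**Figure D4:**
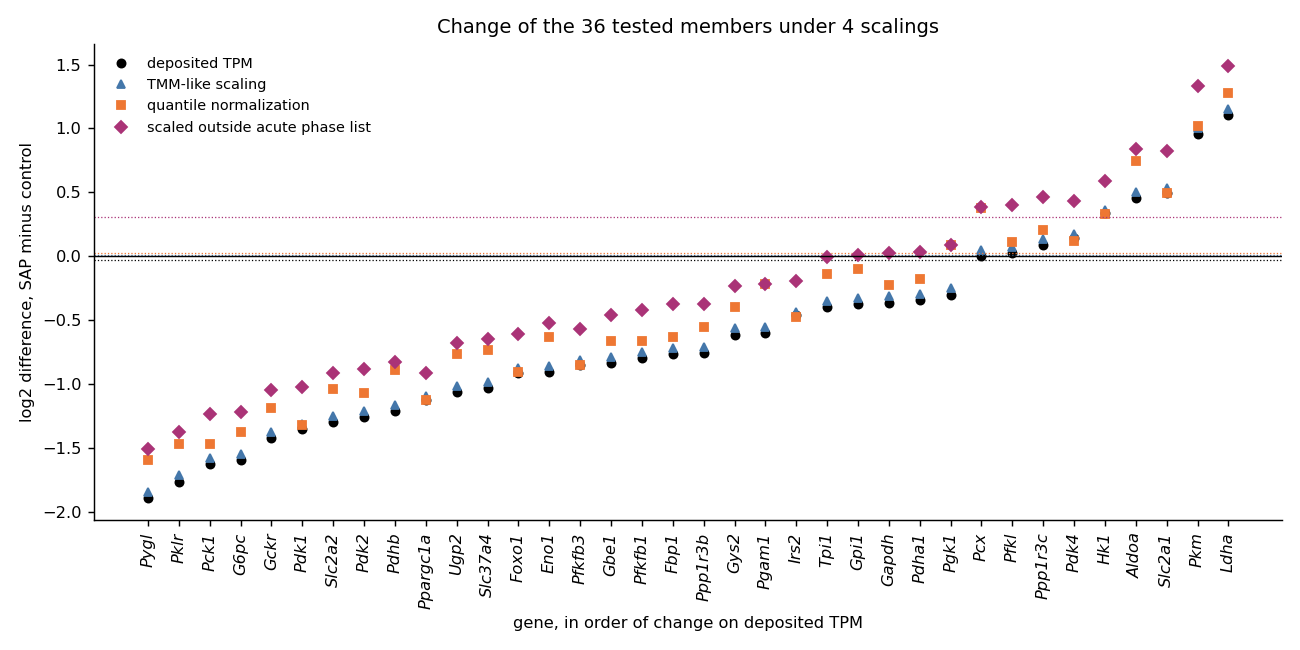
Log2 difference, SAP minus control, of the 36 tested genes under 4 scalings, in order of the change on deposited TPM; dotted lines are the medians of all genes under each. Scaling outside the acute phase list moves all points up with the median of all genes, from -0.03 to 0.30, and brings Tpi1, Gpi1, Gapdh, Pdha1 and Pgk1 to between -0.008 and 0.087.

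The other genes of glucose metabolism comprised 115 isozymes, partners and signalling genes. Of 99 tested 43 fell, 11 rose and 45 did not pass the threshold, where 25.0% of all genes fell and 19.5% rose, and their median was -0.19. The counts depended on the scaling: outside the acute phase list 25 of the 99 were lower and 44 higher. There 11.2% of all genes were lower and 53.2% higher, and the median of all genes moved to 0.30. Set against those shares, the 99 still leaned to the lower side. Of the partners of pyruvate entry 4 of 7 tested fell, 0 rose and 3 did not pass. Dlat, the acetyltransferase core of pyruvate dehydrogenase, fell from 25.5 ± 1.71 to 12.6 ± 1.03 TPM (SD, n = 6 each; -0.96). Mpc2, a subunit of the mitochondrial pyruvate carrier, fell from 266 ± 13.1 to 131 ± 24.0 TPM (SD, n = 6 each; -1.03), while its partner Mpc1 was at 341 ± 17.5 and 305 ± 38.7 TPM (-0.17 ± 0.09 SE, limma adjusted p = 0.116).

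In the list of other gluconeogenesis and glycerol genes 10 of 14 tested fell, 2 rose (Pck2 and, named after its value was seen, the glycerol kinase gene Gk) and 2 did not pass. Over all genes 25.0% fell and 19.5% rose. Got1, the cytosolic aspartate aminotransferase, fell from 238 ± 62.6 to 49.6 ± 22.0 TPM (SD, n = 6 each; -2.29), and Mdh1, cytosolic malate dehydrogenase, from 501 ± 35.4 to 268 ± 25.8 TPM (SD, n = 6 each; -0.91). Pck2, the mitochondrial carboxykinase, rose from 1.03 ± 0.364 to 2.22 ± 0.745 TPM (SD, n = 6 each; 0.65), and was at most 0.00652 of the Pck1 level in any library. In the glycogen list 9 of 20 tested fell and 2 rose. These were Pgm2, a phosphoglucomutase gene (0.50), and Phkg2, the catalytic subunit of liver phosphorylase kinase (0.35). Pygb and Gys1, the brain and muscle forms of phosphorylase and synthase, did not pass (0.23 and -0.02). Pygb was past the threshold when scaled outside the acute phase list (0.54, limma adjusted p = 0.00854), where the median of all genes was 0.30.

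In the list of glycolysis isozymes and lactate genes 4 of 12 tested fell, 2 rose and 6 did not pass, and in that of hexose uptake 2 of 5 fell and 3 did not pass; 25.0% of all genes fell and 19.5% rose. Ldhb was low, at 2.25 ± 0.555 and 2.16 ± 0.679 TPM (-0.06 ± 0.16 SE, limma adjusted p = 0.812). Tigar, a fructose bisphosphatase induced by p53, rose by 0.72 on the log2 scale. Of the insulin, glucagon and cAMP signalling genes 19 of 25 tested did not pass the threshold, 5 fell and 1 rose, beside the same shares of all genes. Foxo3, a relative of Foxo1, fell by 1.31 on the log2 scale, and Sik1, a kinase induced by cAMP, rose from 2.47 ± 0.338 to 5.46 ± 1.31 TPM (SD, n = 6 each; 0.87).

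**Figure D5:**
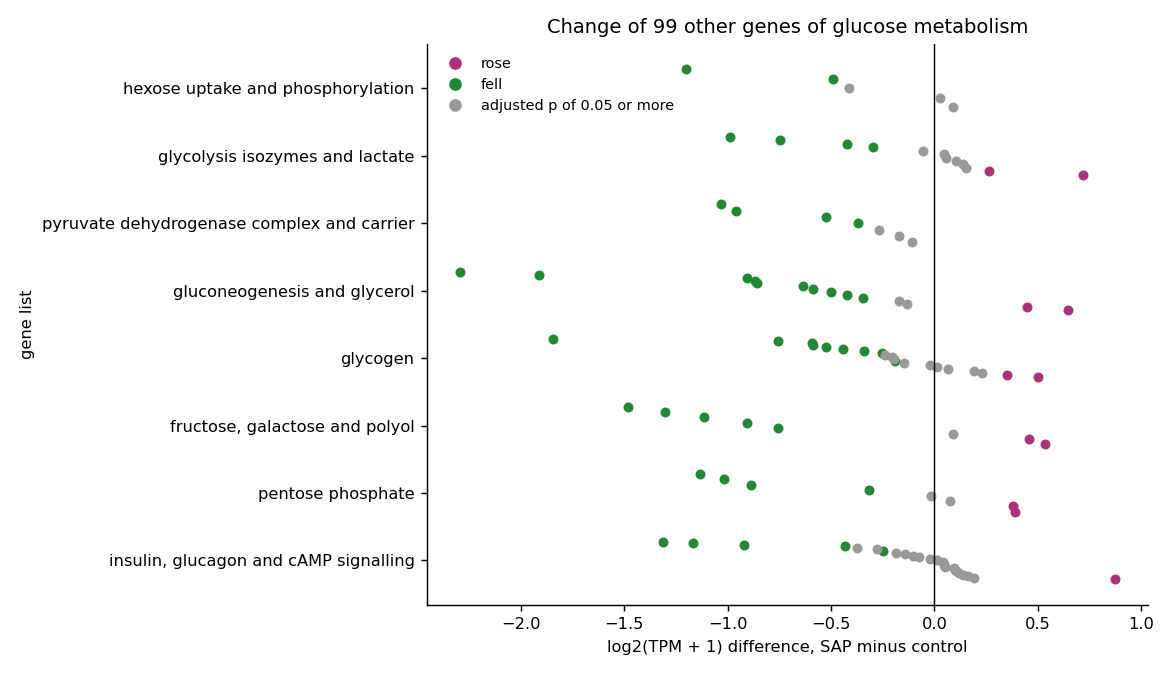
Log2(TPM + 1) difference, SAP minus control, of the 99 tested other genes of glucose metabolism, in 8 lists; each point is a gene, coloured by its call. The lists for gluconeogenesis and for fructose and galactose lie mostly left of 0, while 19 of the 25 signalling genes are grey.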

How the data were processed

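Total RNA of frozen liver was turned into Illumina libraries, per the labels. The authors deposited 1 table of TPM values; the unit was inferred from the values, which sum to 993412 to 995793 per library with no common step. The submitters' processing notes name edgeR with no role; the sources used here do not give aligner, build, annotation or strand. All 12 sample columns were used. A repeated symbol stood for its row of highest median. The 11344 genes reaching 1 TPM in 6 or more libraries were fitted in limma (version 3.58.1, R 4.3.3) with a mean-variance trend on log2(TPM + 1), two-sided, Benjamini-Hochberg over all genes, after a check on simulated data. No batch or pairing is given in the labels. The 37 members, the other gene lists and the pairs for ratios were chosen with earlier results of these data known. All members are accounted for. Genes with an adjusted p under 0.05 and a change of at least 1, and Hk2, Pkm, Gys2 and Irs2, are given by range; of the other genes, the 8 with the smallest adjusted p in each direction and 6 isozymes were to be named (3 of these genes are not reported here), and Mpc1 was added after its value was seen. The marker symbol Tf had no row. Promoters come from RefSeq (GRCm38.p6). Alternatives were 3 scalings, 2 filters, the empirical Bayes step without trend or robust, a pseudocount of 0.1, the Xist split, leaving out libraries, and the highest mean for a repeated symbol. Figures were drawn with matplotlib 3.10.9.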

Additional observations from a re-analysis of the deposited data

Results flagged for a closer look

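In SAP samples 2 values lay far from the other 5 libraries of their group, by Dixon's criterion for 6 values, in 74 groups checked; chance alone flags about 1 in 20 groups. Pdk4 was at 4.12 TPM in SAP 10, where the next SAP library was at 2.33 TPM. Foxo1 was at 2.21 TPM in SAP 14, where the next was at 3.63 TPM.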

How the results depend on the processing

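No paired analysis was possible because control and SAP share no sample number. Of the 36 tested genes, 5 were higher and 26 lower in each of the 12 fits that left out a library; over all genes 1955 to 2453 were higher and 2536 to 3063 lower, and of the other glucose genes 9 to 15 were higher and 36 to 46 lower. Scaled outside the acute phase list, 6040 genes were higher and 1275 lower, 8 of the members were higher, and 44 of the other glucose genes were higher and 25 lower. Quantile normalization gave 18 higher among the other glucose genes. With a mean of at least 5 TPM, 3 members and 6 of the other genes were higher, since fewer genes were tested. Within the high Xist libraries 1830 genes were lower; the low Xist libraries hold 1 control and give values with no p. Scaling outside the acute phase list divides each library by its TPM outside that list. The list took 2.65 to 3.06% of TPM in controls and 20.2 to 34.4% in SAP, so this scaling raised SAP values more. The cause of the other shifts was not tested. Signs turned as follows. Scaled outside the acute phase list, where the median of all genes was 0.30: Gpi1 0.009, Gapdh 0.027, Pgk1 0.087, Pdha1 0.035, Pcx 0.387, Ldhb 0.218 and Gys1 0.196. Quantile normalization: Pgk1 0.085 and Pcx 0.375. TMM-like scaling: Pcx 0.048 and Gys1 0.003. Xist split in the model: Pcx 0.124. High Xist libraries: Pcx 0.048 and Ldhb 0.267. Low Xist libraries: Pdk4 -0.005, Pcx 0.262 and Pygb -0.096. Without SAP 14 and control 5: Pcx 0.000 and Ldhb 0.021. Leaving out each library, Pfkl ranged from -0.020 to 0.058, Pcx from -0.065 to 0.064, Ppp1r3c from -0.030 to 0.297, Ldhb from -0.131 to 0.079 and Gys1 from -0.047 to 0.001. The depth of the libraries is unknown, so no detection limit can be set for low genes such as Hk2.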

Other observations

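The lists for hexoses other than glucose and for the pentose phosphate pathway entered the count of 99 genes, and some of their members are given here. Over all genes 25.0% fell and 19.5% rose. Of 8 genes of fructose, galactose and polyol metabolism 5 fell, 2 rose and 1 did not pass the threshold. The pentose phosphate list had 4 of 8 lower, 2 higher and 2 not past it. Tkt, the transketolase that links the pathway back to glycolysis, fell from 78.7 ± 4.11 to 35.8 ± 6.49 TPM (SD, n = 6 each; limma log2 difference -1.13), Rpia, ribose 5-phosphate isomerase, from 3.96 ± 0.520 to 1.45 ± 0.252 TPM (SD, n = 6 each; -1.02), and Pgd, 6-phosphogluconate dehydrogenase, from 39.8 ± 5.68 to 21.0 ± 2.07 TPM (SD, n = 6 each; -0.89). H6pd, which acts in the endoplasmic reticulum on glucose 6-phosphate, rose from 95.9 ± 9.44 to 126 ± 18.8 TPM (SD, n = 6 each; 0.38). Akr1b3, an aldose reductase gene, rose by 0.46 on the log2 scale.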
